A study of Capra hircus with 6 samples.

Results

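PFKL, TPI1 and PKM encode enzymes of glycolysis, and their RNA was followed in goat (Capra hircus) fetal fibroblasts labelled with a fetal age of 50 days. The genes were taken by symbol from a table of 11374 protein-coding genes, in which each of the 3 has a single row, and their circular RNAs by host gene from a table of 3503 circRNAs. One circRNA, from PKM, was found. Exposed cells had been cultured for 10 weeks with GO-AgNPs, silver nanoparticles combined with graphene oxide, at 0.5 µg/mL. Control cells were the untreated group (0 µg/mL), also labelled with 10 weeks. Each group had 3 libraries of total RNA depleted of ribosomal RNA, and both groups were of the same cell type and labelled age. Whether libraries of a group stem from separate cultures is not labelled, so p-values measure the spread between these libraries, which may be technical.

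Glycolysis splits glucose into pyruvate in the cytosol. Phosphofructokinase, of which PFKL encodes the liver-type subunit, adds the second phosphate to fructose 6-phosphate and is the main point at which the pathway is controlled. Triosephosphate isomerase, encoded by TPI1, interconverts the triose phosphates made when that sugar is split, and pyruvate kinase, encoded by PKM, makes pyruvate and ATP in the last step. Proliferating fibroblasts rely on this pathway for ATP and for carbon that leaves it towards nucleotides and amino acids.

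The gene table held 155452 to 218493 reads per exposed and 203786 to 245958 per control library, so single genes rest on few reads. Values are given as reads and as CPM, which sets each library to a common size after TMM scaling. Of 2148 genes that passed the filter on low counts, 24.9% were higher and 26.7% lower in exposed cells at an adjusted p under 0.05 (edgeR quasi-likelihood test, Benjamini-Hochberg adjustment), which is 534 and 574 genes. Scaled by library totals alone these were 326 and 769, and the median log2 fold change of all tested genes moved from -0.02 to -0.47. Of 9 fibroblast markers listed 8 were in the table and 5 were tested. Of these COL1A1 (10402 ± 1050 CPM exposed, 4873 ± 225.0 control), COL1A2, VIM (1431 ± 349 and 712 ± 63.8 CPM) and DCN rose. PDGFRA was at 60.6 ± 20.5 and 114 ± 6.19 CPM (SD, n = 3 each), with exposed below control libraries, and did not pass (log2 -0.91 ± 0.43 SE, edgeR adjusted p = 0.0813). LUM, not tested, was at 30.7 ± 8.54 and 30.5 ± 15.5 CPM (SD, n = 3). Markers of other cell types had few reads and were not tested, and 3 of the 5 in the table lay apart between the groups. Of all tested genes 27.5% lay apart as higher and 31.3% as lower. These shares do not cover untested genes with few reads, so 3 of 5 cannot be set against them. The epithelial keratin KRT19 had 9, 13 and 14 exposed reads and KRT8 had 4, 0 and 10, with none in any control library. These were the 2 of 5 listed epithelial markers found in the table, and their sum was 84.2 to 153.2 CPM in exposed libraries. CDH5, the 1 of 5 endothelial markers found, was lower in every exposed library, with 0, 0 and 4 exposed and 9, 11 and 6 control reads (0 to 25.5 and 27.4 to 36.9 CPM). CD14, 1 of the 2 of 4 leukocyte markers found, was also lower, with no exposed read and 2, 8 and 8 control reads. The other, CD68, had 0, 8 and 0 exposed and 0, 4 and 0 control reads, and the sum of both was 0 to 57.3 CPM in exposed and 7.90 to 40.3 CPM in control libraries. The part of these cells in the results was not tested. In bulk RNA a change in the number of cells of a type and a change in RNA per cell cannot be told apart.

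The strand on which reads were counted is not given in the sources used here, although the library kit records it. Reads of ND6, which is encoded on the other mitochondrial strand than COX1, were 13.7 to 96.4 times those of COX1 in a library. Whether reads were counted on the strand opposite to the genes, PFKL, TPI1 and PKM included, was not tested. What rose or fell below is therefore the reads counted for a gene. They may come from the opposite strand and may differ from the amount of its mRNA. PFKL and PKM have no other RefSeq gene within 1000 bases, whereas TPI1 overlaps SPSB2 and lies 931 bases from USP5. Tested genes without such a neighbour had a median log2 fold change of 0.47 (219 higher and 104 lower of 614), and those with one had -0.24 (217 higher and 319 lower of 1025).

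PFKL, TPI1 and PKM were all higher in exposed cells. The changes were 5.33-fold for PFKL, 4.21-fold for TPI1 and 2.74-fold for PKM, and for each the lowest exposed library lay above the highest control library in CPM. All 3 passed the test, against 24.9% of all tested genes, and groups lay apart in this direction for 27.5% of them (31.3% in the other). The 3 genes were picked with earlier results of these data known, so their number is a description and not a test of the pathway.

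PFKL (ENSCHIG00000000397) had 37, 28 and 33 reads in exposed replicates 1 to 3 and 9, 13 and 9 reads in control replicates 1 to 3. In CPM these were 239.8, 200.4 and 211 in exposed and 35.5, 43.6 and 41.2 in control libraries. The groups were far apart and each was tight, with the highest library 1.20 times the lowest in exposed and 1.23 times in control cells. The lowest exposed library was 4.59 times the highest control library. The means were 217 ± 20.4 and 40.1 ± 4.16 CPM (SD, n = 3), a log2 fold change of 2.42 ± 0.39 SE (edgeR adjusted p = 2.66e-05). Of all tested genes 5.96% had a larger log2 fold change, and of those without a neighbour 7.82%.

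TPI1 (ENSCHIG00000016031) had 27, 24 and 10 exposed reads and 8, 13 and 4 control reads. These were 175, 171.8 and 63.8 CPM in exposed and 31.6, 43.6 and 18.3 CPM in control libraries. Exposed replicates 1 and 2 were nearly equal and replicate 3 was well below them, so the highest exposed library was 2.74 times the lowest, and the lowest exposed was 1.46 times the highest control library. The means were 136.8 ± 63.3 and 31.2 ± 12.7 CPM (SD, n = 3), a log2 fold change of 2.07 ± 0.50 SE (edgeR adjusted p = 0.00162). A larger log2 fold change was seen in 8.57% of all tested genes. By raw reads the groups overlapped, with 10 in exposed replicate 3 and 13 in control replicate 2, and in CPM without TMM scaling these libraries held 62.3 and 52.9.

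Both neighbours of TPI1 also had their lowest exposed value in replicate 3. USP5, a deubiquitinating enzyme, had 13, 9 and 2 exposed and 3, 5 and 0 control reads. SPSB2, which overlaps TPI1, had 7, 15 and 5 exposed and 3, 7 and 6 control reads. Neither passed the filter on low counts, and how many of the TPI1 reads belong to SPSB2 was not tested.

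PKM (ENSCHIG00000016056) had 110, 68 and 94 exposed reads and 54, 70 and 45 control reads. These were 713, 486.7 and 599.9 CPM in exposed and 213, 235.0 and 205.9 CPM in control libraries. The controls lay close together, and the lowest exposed library was 2.07 times the highest of them. The means were 599.8 ± 113.1 and 218 ± 15.2 CPM (SD, n = 3), a log2 fold change of 1.46 ± 0.22 SE (edgeR adjusted p = 1.14e-05). A larger log2 fold change was seen in 16.7% of all tested genes and in 24.8% of those without a neighbour. In raw reads 68 in exposed replicate 2 fell just under 70 in control replicate 2, and in CPM without TMM scaling these were 437.4 and 284.6. PKM makes the M1 and M2 forms of the enzyme by a choice between alternative exons, and reads per gene do not separate them.

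**Figure D1:**
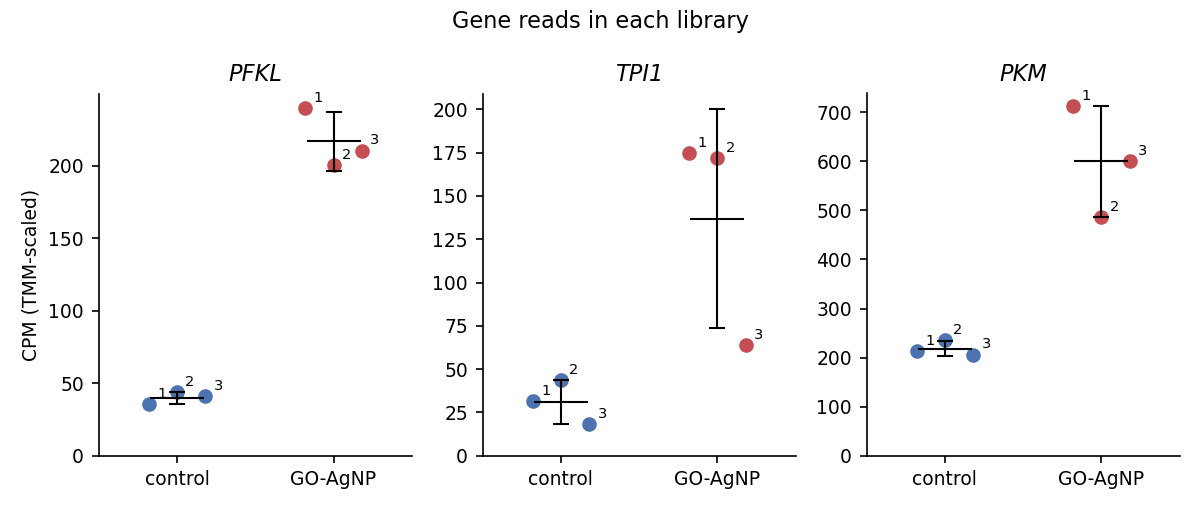
TMM-scaled CPM of PFKL, TPI1 and PKM (y axes, each from 0) in the 3 control and 3 exposed (GO-AgNP) libraries, with replicate numbers, the mean (bar) and SD (whiskers). In every panel all exposed points lie above all control points, and exposed replicate 3 of TPI1, at 63.8 CPM, lies nearest to the controls.

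The ratio of PFKL to PKM reads was higher in each exposed library than in any control library. The log2 ratio of PFKL to PKM reads within a library, which does not depend on scaling, was -1.40 ± 0.16 in exposed and -2.23 ± 0.13 in control cells (SD, n = 3). The difference was 0.84, with p = 0.1 by the exact permutation test (two-sided), the smallest that 20 assignments allow, and 0.3 adjusted over the 3 pairs. PFKL to TPI1 differed by 0.39 (p = 0.5 by the exact permutation test) and TPI1 to PKM by 0.45 (p = 0.5), both with overlapping groups. For PFKL to TPI1 the sign rests on 1 library: without exposed replicate 3 the difference was -0.02.

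Phosphofructokinase is built from subunits of 3 genes, PFKL, PFKM (muscle type) and PFKP (platelet type), and the liver type took a larger share of their reads in exposed cells. PFKP had 49, 52 and 61 exposed and 85, 121 and 69 control reads, or 359.7 ± 37.5 and 353 ± 47.6 CPM (SD, n = 3), and did not pass (log2 0.02 ± 0.22 SE, edgeR adjusted p = 0.934). PFKM had 8, 6 and 2 exposed reads and no control read. Setting the controls to 3 reads over the group, the scaled ratio for PFKM was 9.11. That value takes the exposed reads as exact and is not a lower limit. PFKM did not pass the filter on low counts and was not tested. The share of PFKL among the reads of the 3 genes was 39.4%, 32.6% and 34.4% in exposed and 9.57%, 9.70% and 11.5% in control libraries. The mean was 35.4% ± 3.52 in exposed and 10.3% ± 1.10 in control cells (SD, n = 3), without overlap, and an exact permutation test gave p = 0.1 (two-sided, the smallest possible; 0.1 adjusted over 4 isozyme shares). The share of PFKP was 58.7% ± 5.91 and 89.7% ± 1.10. These shares were chosen after the reads were seen, are not corrected for gene length, and rest on 78 to 134 reads per library. The summed CPM of the 3 genes was 609.1, 615.5 and 612.7 in exposed and 371.1, 449.9 and 356.9 in control libraries (exact permutation test p = 0.1). PFKP overlaps PITRM1, which had 9, 16 and 6 exposed and 48, 73 and 47 control reads, and the part of those reads in the PFKP values was not tested.

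**Figure D2:**
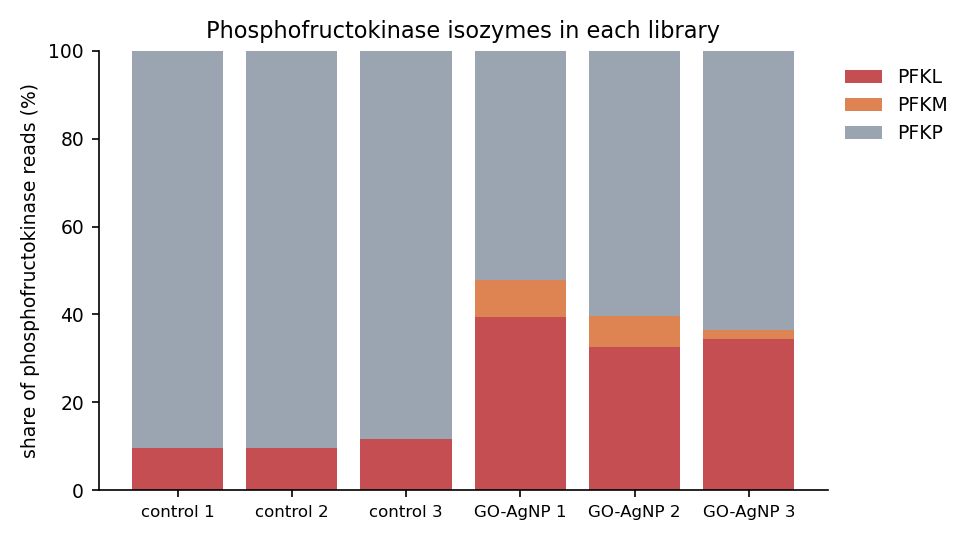
Share of phosphofructokinase reads (y axis, percent) that were assigned to PFKL, PFKM and PFKP in each library (x axis). PFKL takes 9.57% to 11.5% in the controls and 32.6% to 39.4% in the exposed libraries, and PFKM is seen in exposed libraries alone.

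Pyruvate kinase was read almost wholly from PKM. PKLR, which encodes the liver and red cell enzyme, had 5, 8 and 2 exposed and 0, 1 and 0 control reads, 25.6-fold higher with a 95% exact counting interval of 3.94 to 1078, and was not tested. PKM took 94.3% ± 4.37 of the pyruvate kinase reads in exposed and 99.5% ± 0.813 in control cells (SD, n = 3; exact permutation test p = 0.1).

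Circular RNAs of the 3 genes were close to undetected. The single PKM circRNA was sense overlapping by the authors' catalogue, with a predicted length of 9714 nt. Its place was chromosome 10, 82255678 to 82265391, plus strand, in coordinates as deposited, of which the build is uncertain. It had 0, 1 and 1 junction reads in exposed libraries and none in the controls. Per 10000 junction reads this was 4.69 ± 4.12 in exposed and 0 in control cells (SD, n = 3; p = 0.4 by the exact permutation test), a difference not detectable at this depth. The 0 of 17348 control junction reads allows up to 1.73 per 10000. PFKL and TPI1 had no junction read in 4287 exposed and 17348 control junction reads, which allows up to 7.0 and 1.73 per 10000. These limits cover counting error only. Of the 16 other glycolysis genes listed, 1 hosted circRNAs: GPI had 3 intronic ones with 8 control reads and 0 exposed reads in all. No lncRNA row was associated with PFKL, TPI1 or PKM.

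Along the rest of glycolysis, most measured enzymes did not pass the test. Of 16 other enzyme genes listed, 10 were in the table under their symbols and 5 passed the filter, of which 1 rose, none fell and 4 did not pass. The 1 of 5 is close to the 24.9% of all tested genes that were higher. Their median log2 fold change was 0.54 against -0.02 over all tested genes. PGAM1, the phosphoglycerate mutase, had 17, 14 and 18 exposed and 10, 16 and 7 control reads and rose 2.54-fold, from a mean of 41.7 to 108.4 CPM (log2 1.35 ± 0.46 SE by edgeR, adjusted p = 0.0180). That call was lost with no scaling factor (adjusted p = 0.134), without a filter (0.136), without control replicate 1 (0.0715) or 3 (0.0897) and in a fit of genes without a neighbour (0.143). For GPI, which makes fructose 6-phosphate, the log2 value was 0.80 ± 0.35 SE (adjusted p = 0.0599). It passed when exposed replicate 2 (adjusted p = 0.0186) or 3 (0.0491) was left out, or with a mean of at least 10 reads (0.0299). The hexokinases HK1 and HK2, which trap glucose in the cell, had log2 fold changes of 0.10 ± 0.49 SE and 0.54 ± 0.55 SE. None of the 5 had a negative estimate as reported. Those of PFKP and HK1 fell below 0 under 5 of 13 and 6 of 14 alternatives, no scaling factor among them.

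Several steps had too few reads to test, and ALDOA, ALDOC, GAPDH, ENO1, LDHA and LDHB had no row under these symbols. PGK1, the phosphoglycerate kinase, had 7, 9 and 6 exposed and 10, 4 and 4 control reads. The enolase ENO3 had 6, 3 and 5 against 7, 11 and 6, and ENO2 0, 11 and 0 against 5, 1 and 3. Lactate dehydrogenase, listed as LDH-A, had 5, 1 and 3 exposed and 12, 8 and 4 control reads.

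**Figure D3:**
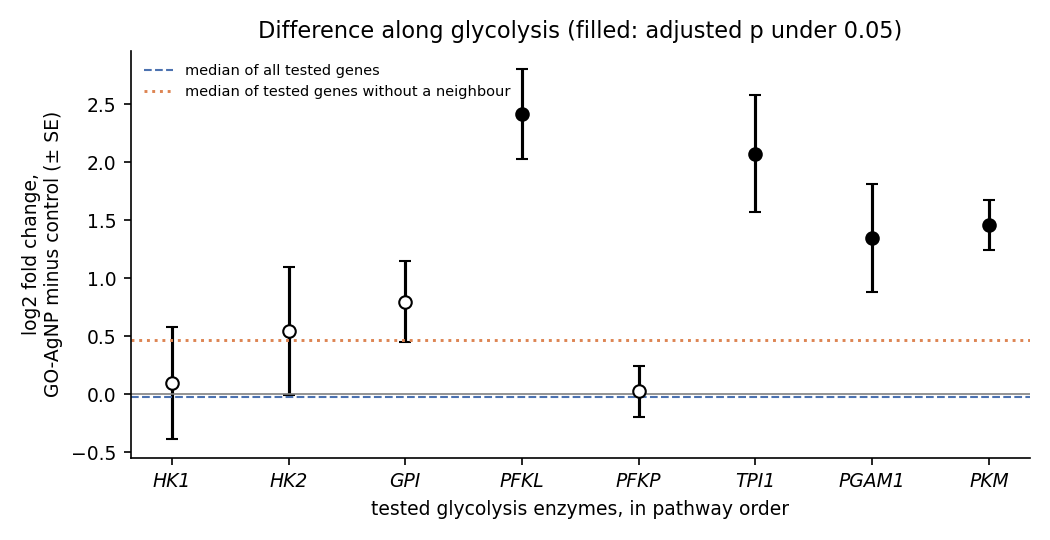
Log2 fold change, exposed minus control, with SE (y axis) for the 8 tested glycolysis enzymes in pathway order (x axis); filled points passed an adjusted p of 0.05, the dashed line is the median of all tested genes and the dotted line that of tested genes without a neighbour. PFKL, TPI1, PGAM1 and PKM are filled and lie between 1.35 and 2.42, while HK1 and PFKP lie near 0.

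The authors' annotation puts 27 other genes in the glycolysis and gluconeogenesis pathway, a list taken up after the tables were seen. Of these 9 were tested, 1 rose, 3 fell and 5 did not pass, where 24.9% of all tested genes were higher and 26.7% lower. The 9 include the 5 tested genes of the main list above, and the 1 that rose is again PGAM1. The tested genes that this list adds are ACSS2, which did not pass (edgeR adjusted p = 0.643), and the 3 that fell. They are too few to set their count apart from that background. GAPDHS, the glyceraldehyde 3-phosphate dehydrogenase of sperm, fell (168 ± 47.9 CPM exposed and 462 ± 123.3 control, SD, n = 3; edgeR adjusted p = 0.000115). PGAM2, the muscle phosphoglycerate mutase, also fell (1796 ± 131.7 and 2725 ± 230.3 CPM, SD, n = 3; edgeR adjusted p = 0.00138). Both overlap another gene, PGAM2 with DBNL. The third was PCK2, which makes phosphoenolpyruvate in mitochondria, 4.70-fold lower (adjusted p = 0.00803), a call lost without control replicate 1 (adjusted p = 0.0664).

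No tested transporter or regulator of glycolytic flux passed as higher, where 24.9% of all tested genes were higher and 26.7% lower. The tested ones are too few to set their counts apart from that background. Of 12 transporters listed, 3 were tested. The glucose transporter SLC2A12 fell (log2 -1.88 ± 0.59 SE, adjusted p = 0.0110), a call lost without exposed replicate 2 or 3 (adjusted p = 0.0628 each) or control replicate 2 (0.0533). SLC2A3, another glucose transporter, had a log2 fold change of 0.20 ± 0.55 SE and the lactate exporter SLC16A3 -0.11 ± 0.48 SE. Of 15 regulators of glycolytic flux 2 were tested. PRKAA1, a catalytic subunit of the AMP-activated kinase, fell (2, 3 and 0 exposed against 25, 16 and 17 control reads; log2 -2.71 ± 0.73 SE, adjusted p = 0.00383). HIF1A, which drives glycolytic genes under low oxygen, did not pass (log2 -0.07 ± 0.49 SE, adjusted p = 0.911). PTBP1, a splicing factor that favours the M2 form of PKM and the 1 of 6 such factors found in the table, was 2.17-fold higher (adjusted p = 0.0456), a call lost under 9 of 13 alternatives, with adjusted p up to 0.271.

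Among genes that respond to low oxygen outside glycolysis, 15 were listed and 7 tested, of which 4 rose, 2 fell and 1 did not pass. Over all tested genes 24.9% were higher and 26.7% lower, so the 2 that fell are near the background, and the 4 that rose are a count over few genes. VEGFA, the vascular growth factor, had 85, 86 and 62 exposed and 44, 35 and 43 control reads (log2 1.69 ± 0.25 SE, adjusted p = 1.18e-05). DDIT4, an inhibitor of mTOR signalling, was 5.95-fold higher (adjusted p = 0.000730). CA9, a carbonic anhydrase, was 2.03-fold higher (adjusted p = 0.0255) and P4HA2, a collagen prolyl hydroxylase, 2.02-fold higher (adjusted p = 0.0494), calls lost under 5 and 9 of 13 alternatives with adjusted p up to 0.234 and 0.351. The peptide hormone ADM fell by 1.27 on the log2 scale (adjusted p = 0.0209), a call lost under 6 of 14 alternatives (up to 0.0712), and ANKRD37 fell by 1.20 (adjusted p = 0.00626). The oxygen sensor EGLN1 had a log2 fold change of 0.06 ± 0.42 SE.

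Branches from the pathway gave few tests. TALDO1, the transaldolase of the pentose phosphate pathway, was 2.72-fold higher (adjusted p = 0.0147, lost under 5 of 13 alternatives with values up to 0.124), and PGD, of the same pathway, had a log2 fold change of 0.08 ± 0.61 SE. These were the 2 tested of 8 listed. SHMT2, which takes serine into one-carbon metabolism, was the 1 tested of 17 genes of side branches, with overlapping groups of 19, 14 and 7 exposed and 4, 8 and 11 control reads (log2 1.53 ± 0.57 SE, adjusted p = 0.0286, lost under 7 of 12 alternatives with values up to 0.149). Of 23 genes of pyruvate dehydrogenase and the citric acid cycle, the citrate synthase gene CS was tested and did not pass (log2 -0.32 ± 0.53 SE).

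The genes most like each of the 3 were found by Pearson's r of log2 CPM over the 6 libraries, among 1764 other tested genes with a symbol. The libraries share their group difference and scaling, so r mainly orders genes by how evenly they follow it, and it is a description over 6 points. PFKL was nearest to NXF1, a factor of mRNA export (r = 0.997), UBE2M (r = 0.996) and ATG13 (r = 0.995). NXF1 had 13, 11 and 12 exposed and no control reads, ATG13 also had no control read, and UBE2M had 1, 2 and 2. PKM was nearest to FOXP4 (r = 0.998), CSF1 (r = 0.994) and SPPL3 (r = 0.993). In all of these exposed replicate 2 had the fewest of the exposed reads, as in PKM. Control reads were 0, 1 and 0 in FOXP4 and 6, 7 and 4 in CSF1, and SPPL3 had none. Genes with no or almost no control reads passed the filter through their exposed reads, and their control values lie at or near the floor. TPI1 was nearest to TLN1 (r = 0.997), CD248 (r = 0.989) and LAMC1 (r = 0.988), which were all lowest in replicate 3 of both groups. TPI1 itself was too. Because genes were picked by r, a lowest replicate shared with PKM or TPI1 is no separate result. Among the 3 genes themselves r was 0.986 for PFKL and PKM, 0.871 for PFKL and TPI1 and 0.856 for PKM and TPI1.

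The differences of the 3 genes kept their direction and passed under each alternative that gave a value. PFKL ranged from log2 1.91 to 2.60, TPI1 from 1.57 to 2.55 and PKM from 0.95 to 1.71. With no scaling factor they were 1.95, 1.57 and 0.98, where the median of all tested genes was -0.47. In the fit of genes without a neighbour, which was added once values had been seen, PFKL was 1.91 (edgeR adjusted p = 0.000402) and PKM 0.95 (adjusted p = 0.00154), and TPI1 has no value there.

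**Figure D4:**
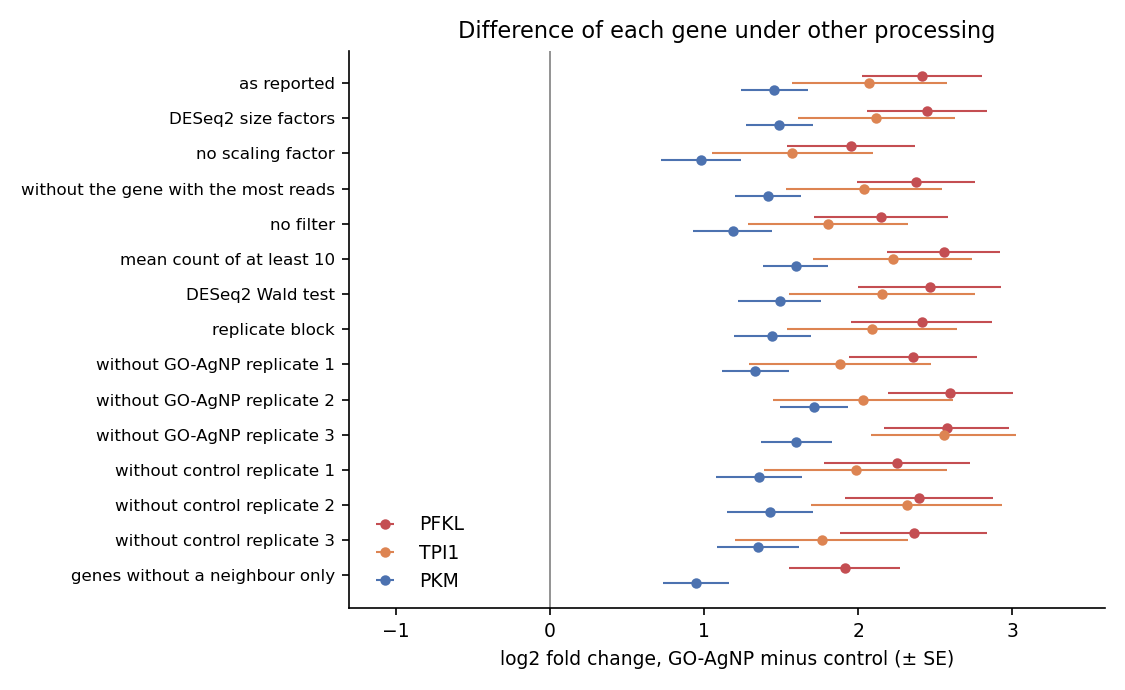
Log2 fold change, exposed minus control, with SE (x axis) of PFKL, TPI1 and PKM as reported and under each other processing or with 1 library left out (y axis). All points lie right of 0, and PKM is lowest, at 0.95, in the fit of genes without a neighbour.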

How the data were processed

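The authors deposited raw counts per gene, per lncRNA and per circRNA back-splice junction, per the file headers. CASAVA 1.8, BWA and hg19 are named in the submitters' processing notes. The build hg19 is human although the cells are from goat, so the build of the deposited coordinates is uncertain. Not given in the sources used here are the circRNA caller, the read counter with its strand setting, and the annotation. The 18 normalized per-library columns were not used. Groups follow the labelled treatment, and columns their headings, which are sample titles.

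The whole gene table was fitted with edgeR 4.0.16 in R 4.3.3 (filterByExpr with a minimum count of 10, TMM, glmQLFit and glmQLFTest, table totals as library sizes), with Benjamini-Hochberg adjustment over all tested genes at 0.05. The SE was taken as log2 fold change over root F. The script was tested on simulated data. Log2 CPM for likeness used a prior count of 2, and ratios added 2 reads to each gene. Single values were tested by exact permutation of the 20 assignments, two-sided (Python 3.11.15, scipy 1.17.1). Neighbours come from the RefSeq table of goat assembly ARS1.2, matched by gene number (8761 of 11374 genes). It was used for adjacency only, and 8439 genes had a position on a numbered chromosome.

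The 3 genes and all lists were chosen with earlier results of these data known. Named were the 3 genes, every tested gene of the main glycolysis list, up to 8 passing and 4 other genes of each further list, and the 3 genes most like each of PFKL, TPI1 and PKM. Untested genes, GAPDHS, PGAM2, ACSS2 and the isozyme shares were added after their values were seen. Alternatives were leaving out each library, leaving out the gene with the most reads, size factors or the Wald test of DESeq2 1.42.0, no scaling factor, a mean of at least 10 reads, no filter, and a block for the replicate number. Added later was a fit of genes without a neighbour. Same-numbered libraries of the groups are not stated to be paired. One gene that the naming rule took is not reported here.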

Additional observations from a re-analysis of the deposited data

How the results depend on the processing

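PFKL, TPI1 and PKM passed under all alternatives that gave a value; leaving out 1 library gave log2 2.25 to 2.60, 1.76 to 2.55 and 1.33 to 1.71. TPI1 had its largest adjusted p, 0.0168, without exposed replicate 1. Of the 16 other glycolysis enzymes, 1 was higher as reported and 0 with no scaling factor. Without a filter 2 were higher (PKLR and PFKM), as were 2 with a mean of at least 10 reads (GPI and PGAM1). In the fit of genes without a neighbour 0 were higher, and only HK1 and PGAM1 of these enzymes had a value there. With 1 library left out 0 to 2 were higher, and none was lower in any of these settings. Over all genes 534 were higher and 574 lower as reported, against 326 higher with no scaling factor, 941 higher and 1165 lower without a filter, and 135 higher and 144 lower in the fit of genes without a neighbour, in which 567 genes were tested. Leaving out 1 library gave 553 to 625 higher and 539 to 653 lower.

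With the replicate number as a block the log2 fold changes were 2.41, 2.09 and 1.44, and no call of the 3 genes changed (497 genes higher and 544 lower). Deviations of same-numbered libraries from their group means correlated at -0.02, -0.01 and -0.03, and those of differently numbered libraries at -0.0121 to 0.0281. With few reads per gene and 3 libraries per group, these values cannot show whether same-numbered libraries are paired. The ratio of PFKL to TPI1 was 0.39 higher in exposed cells and -0.0204 without exposed replicate 3 (range -0.0204 to 0.66 with 1 library left out; 0.37 with 0.5 reads added). PFKL to PKM ranged from 0.75 to 0.91 and TPI1 to PKM from 0.10 to 0.88. The PKM circRNA difference ranged from 3.15 to 7.03 per 10000 junction reads with 1 library left out. The PFKL share of phosphofructokinase reads differed by 23.2 to 26.6 percentage points with 1 library left out. Reads per gene limit precision: TPI1 rests on 61 exposed and 25 control reads.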
